A study of Mus musculus with 29 samples.

Results

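The genes described here carry fatty acids into cells, activate them, hydrolyse their thioesters or dispose of them, and they were followed in brown adipose tissue (BAT) and gastrocnemius skeletal muscle (SkM) of mice under calorie restriction (CR), exercise training (EX) or both (CREX). They were chosen by symbol as known targets of the peroxisome proliferator-activated receptors (PPARs), and all 9 were found among the 24770 gene symbols of the expression table: Cd36, Slc27a1, Acsl1, Acot1, Acot2, Ehhadh, Ucp2, Ucp3 and Angptl4. The rule uses symbols alone, but the genes were proposed with earlier results of these data known. All mice were wild-type C57BL/6J males whose intervention began at 8 weeks of age and lasted 8 weeks, and all were fasted for 6 h before tissue was taken. The control mice ate ad libitum and stayed sedentary. The CR mice were brought in steps to 70% of the ad libitum food intake and stayed sedentary, the EX mice ate ad libitum and ran on a treadmill, and the CREX mice received both. Bulk mRNA sequencing gave 15 BAT libraries (3 control, 4 CR, 4 EX and 4 CREX) and 14 SkM libraries (4 control, 3 CR, 4 EX and 3 CREX). Nothing in the labels ties a BAT library to an SkM library of the same mouse. In bulk tissue, fewer cells of a type and less RNA per cell cannot be told apart.

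PPARα, PPARδ and PPARγ are nuclear receptors that bind fatty acids and their derivatives, pair with a retinoid X receptor (RXR) and bind DNA at a direct repeat of a hexamer. PPARα is known for the oxidation of fatty acids, PPARγ for the storage of lipid in adipocytes, and PPARδ for oxidative metabolism in muscle. In BAT their targets serve the uptake and combustion of lipid for heat, and in muscle they serve the switch from glucose to fatty acids during fasting and endurance work. Cd36 is the membrane receptor for long-chain fatty acids, Slc27a1 (FATP1) is a fatty acid transport protein, and Acsl1 joins fatty acids to coenzyme A. Acot1 in the cytosol and Acot2 in mitochondria split fatty acyl-CoA back into free fatty acid and coenzyme A. Ehhadh is the bifunctional enzyme of peroxisomal β-oxidation, Ucp2 and Ucp3 are carriers of the mitochondrial inner membrane, and Angptl4 is a secreted inhibitor of lipoprotein lipase.

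The thioesterase pair is shown first because its members are near-identical, which bears on every value given for them. Acot2 and Acot1 lie next to each other on chromosome 12 in GRCm38 (mm10), Acot2 at chr12:83987861-83993877 and Acot1 at chr12:84009502-84017670, both on the plus strand and 15624 bases apart. Their coding sequences are 95.6% identical, with 55 differing bases over 1236 aligned bases, an identical run of 273 bases and 209 of 1108 windows of 150 bases of Acot1 that occur unchanged in Acot2. The stretch of 90 coding bases with the most differences holds 14 of them, shown in capitals, in transcript sequence of the GENCODE M21 annotation from coding bases 797 to 886 of Acot1 and 920 to 1009 of Acot2.
Acot1: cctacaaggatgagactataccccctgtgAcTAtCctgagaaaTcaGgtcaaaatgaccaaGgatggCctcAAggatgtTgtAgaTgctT
Acot2: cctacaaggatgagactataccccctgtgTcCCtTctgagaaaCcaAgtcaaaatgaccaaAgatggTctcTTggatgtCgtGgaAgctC
Reads that fall in identical stretches must be divided by estimation, and the deposited values were not whole numbers in 28 of 29 libraries for Acot1 and in 29 of 29 for Acot2, against 0 of 29 for each of the other 7 genes. The separate levels of Acot1 and Acot2 are therefore uncertain. Ucp3 and Ucp2 are also neighbours on chromosome 7, at chr7:100472991-100486432 and chr7:100493337-100499629 with 6904 bases between them, but their coding sequences are 75.4% identical and 0 of 778 windows of 150 bases were shared. The other genes lie apart, Cd36 at chr5:17781690-17888959 on the minus strand, Slc27a1 at chr8:71568728-71587307 and Acsl1 at chr8:46471037-46536051 on the plus strand, and Ehhadh at chr16:21761285-21787834 and Angptl4 at chr17:33774900-33781575 on the minus strand.

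Promoters are shown for the pair of genes whose window holds a sequence close to the motif that PPAR and RXR bind. RefSeq windows from 250 bases before to 50 bases after a transcription start (GRCm38.p6) were matched for 8 of the 9 genes, 11 windows in all, and Angptl4 had no entry. Both strands were searched for AGGTCANAGGTCA, which overlaps the hexamer AGGTCA, with at most 2 mismatches over its 12 fixed bases. A match was found for Cd36 and Ucp3, in 2 of 11 windows, and in 3.86% of all 32851 windows. With at most 1 mismatch, 0 of 11 windows and 0.554% of all windows matched. With at most 3 mismatches, 3 of 11 windows and 24.6% of all windows did. The 120 bases before each start are printed with the match in capitals, on the minus strand at chr5:17835897-17836016 for Cd36 and on the plus strand at chr7:100472871-100472990 for Ucp3.
Cd36: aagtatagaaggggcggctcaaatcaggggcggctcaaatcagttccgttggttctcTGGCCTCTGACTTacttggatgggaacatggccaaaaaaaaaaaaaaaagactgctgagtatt
Ucp3: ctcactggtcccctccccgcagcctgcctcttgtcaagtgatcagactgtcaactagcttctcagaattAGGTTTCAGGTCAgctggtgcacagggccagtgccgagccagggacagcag
The match of Cd36 lies from -63 to -51 and reads on the opposite strand, and that of Ucp3 lies from -51 to -39 on the same strand. The Cd36 start used here lies inside the gene span of chr5:17781690-17888959 and not at its upstream end, and the 11 windows held no other for Cd36. These are matches of letters, and binding was not measured.

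Levels are given as CPM (counts-per-million, each library scaled to the same total) after TMM scaling over all 29 libraries. The libraries held 21047242 to 24919377 counts in BAT and 23050918 to 23425284 in SkM, and 3 counts correspond to 0.120 to 0.143 CPM and 0.128 to 0.1301 CPM of the library total. A change was called when the adjusted p of edgeR's quasi-likelihood test was under 0.05 and the fold change was above 1.5, and each log2 fold change is printed with its standard error (SE). Library composition varied in ways that touch these genes. In BAT, 10 muscle fibre markers summed to 42.4 to 5583 CPM per library, which is 0.0337% to 4.44% of their level in control SkM. In SkM, 7 slow fibre markers summed to 1186 to 2315 CPM in control, 1901 to 2217 CPM in CR, 405 to 2177 CPM in EX and 38.3 to 674 CPM in CREX mice, with CREX 3 at 38.3, CREX 2 at 106 and CREX 1 at 674 CPM. Also in SkM, 10 hepatocyte markers summed to 49.3 to 273 CPM in CR mice against 0.597 to 7.95 CPM in control mice. As a check of the tissue labels, 10 brown adipocyte markers summed to 6451 to 7456 CPM in control BAT and to 463 to 786 CPM in control SkM.

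In the control mice the levels of the 9 genes spread widely within each tissue. Per kilobase of transcript, Acsl1 stood highest in BAT at 499 ± 34.9 CPM per kb (SD, n = 3), followed by Cd36 at 341 ± 21.01, Slc27a1 at 65.1 ± 7.87, Angptl4 at 63.2 ± 6.93, Ehhadh at 56.9 ± 14.9, Ucp3 at 42.1 ± 5.97, Acot2 at 22.2 ± 0.708, Ucp2 at 6.08 ± 0.357 and Acot1 at 3.91 ± 1.71. Slc27a1, Angptl4 and Ehhadh were not separated beyond their spread, and neither were Ehhadh and Ucp3. In SkM the order per kilobase was Acsl1 at 114 ± 5.57 CPM per kb (SD, n = 4), Cd36 at 98.2 ± 2.20, Ucp3 at 71.1 ± 9.49, Slc27a1 at 48.2 ± 2.77, Acot2 at 22.8 ± 4.69, Ucp2 at 3.82 ± 0.598, Ehhadh at 3.79 ± 0.361, Angptl4 at 2.11 ± 1.05 and Acot1 at 1.94 ± 0.282. Here the last pair and the pair of Ucp2 and Ehhadh were within their spread.

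Between control BAT and control SkM, 7 of 9 genes were called, 6 higher in BAT and 1 lower, when 60% of 13797 tested genes were called (29.8% higher, 30.2% lower) and 74.9% passed the adjusted p alone. Angptl4 was 192, 199.9 and 235 CPM in BAT against 4.49, 4.98, 6.40 and 12.01 CPM in SkM, 29.5-fold higher (log2 fold change 4.88, SE 0.33, adjusted p = 6.5e-06). Ehhadh was 122, 175 and 211 CPM against 9.70, 11.7, 11.8 and 12.01 CPM, 14.7-fold higher (log2 fold change 3.88, SE 0.18, adjusted p = 8.6e-09). No library of either tissue overlapped the other for these genes. Acsl1 (log2 fold change 2.10, SE 0.12), Cd36 (1.77, SE 0.11), Acot1 (0.99, SE 0.31) and Ucp2 (0.64, SE 0.12) were also higher in BAT, while Ucp3 was lower there (-0.78, SE 0.13). Slc27a1 differed by a log2 fold change of 0.41 (SE 0.10, adjusted p = 0.0036), under the fold minimum, and Acot2 had a log2 fold change of -0.07 (SE 0.14, adjusted p = 0.68). The call of Acot1 was lost without BAT control 2 (adjusted p = 0.0559), BAT control 3 (0.0569), SkM control 1 (0.0723) or SkM control 4 (0.0653), and that of Ucp2 without SkM control 2 (log2 fold change 0.54).

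**Figure D1:**
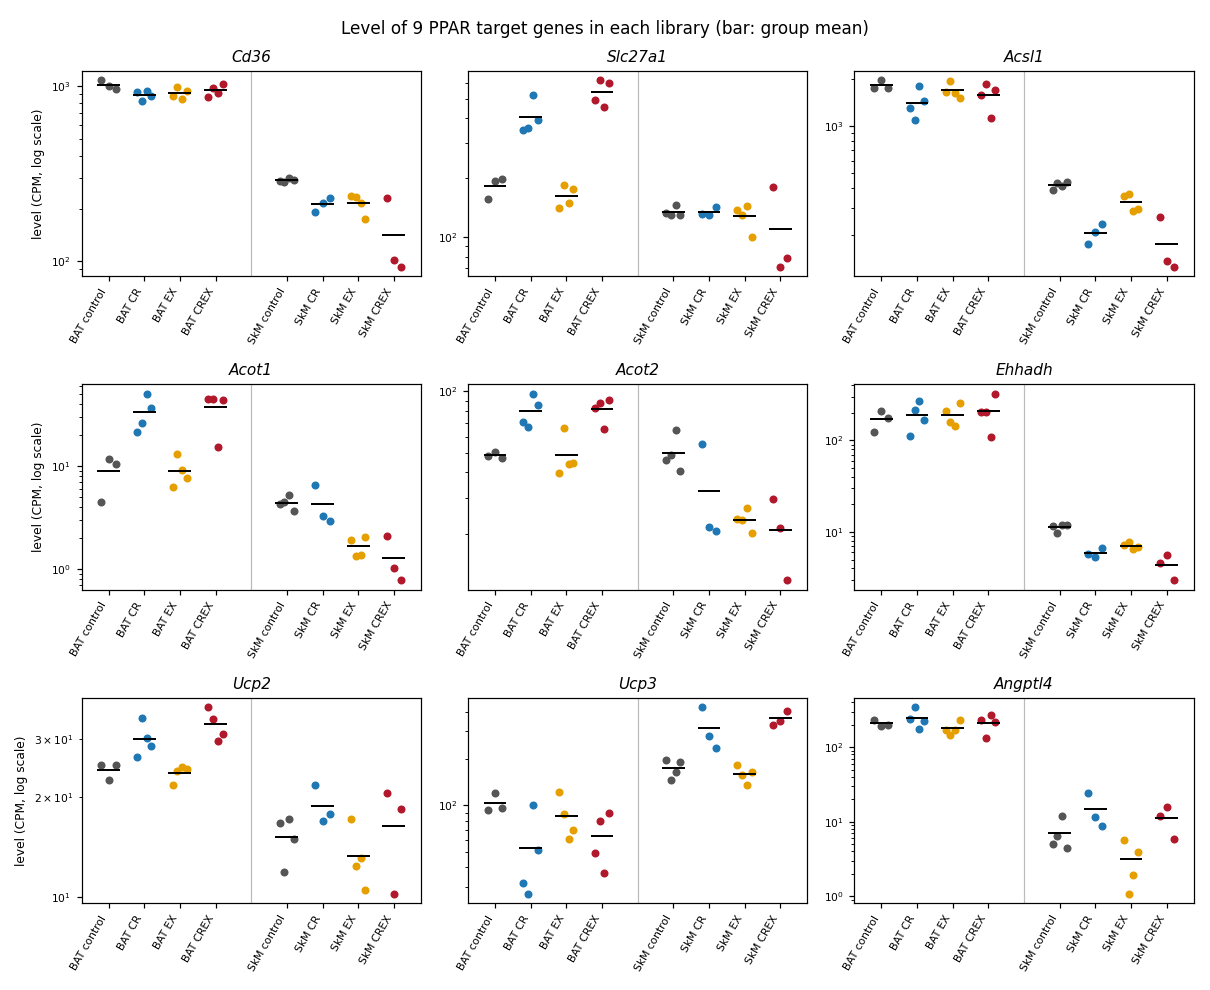
Levels of the 9 genes in every library, in CPM on a log axis, with 1 panel per gene. Points are libraries grouped by tissue and intervention, and horizontal bars are group means; Slc27a1 in BAT stands at 348 to 524 CPM in CR and 456 to 621 CPM in CREX libraries, above all control and EX libraries, which reach 196 CPM.

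In BAT, CR went with higher Slc27a1, Acot1 and Acot2, and did so in sedentary and in trained mice. Against control, 3 of 9 genes were called, all 3 higher, when 10.7% of 13323 tested genes were called (3.87% higher, 6.86% lower). In CREX against EX the same 3 genes were called higher, when 4.48% of 13251 tested genes were called (1.86% higher, 2.63% lower). The median log2 fold change of the 9 genes was 0.23 and 0.22, beside medians of 0.0045 and -0.0020 over all tested genes. The groups did not overlap for 5 of 9 genes in CR against control (33.8% of tested genes) and for 3 of 9 in CREX against EX (18.1%).

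Slc27a1, the transporter, stood at 157, 193 and 196 CPM in control and at 348, 356, 389 and 524 CPM in CR mice. All 4 CR libraries lay above all 3 control libraries, at 404 ± 81.6 against 182 ± 22.0 CPM (SD, n = 4 and 3), a 2.17-fold higher level (log2 fold change 1.12, SE 0.14, adjusted p = 0.0012). In trained mice Slc27a1 was 139.9, 149.6, 174 and 184 CPM in EX and 456, 491, 599.9 and 621 CPM in CREX libraries. This 3.27-fold difference (log2 fold change 1.71, SE 0.12, adjusted p = 0.00028) had the smallest p of all 13251 genes tested, and the call held without any 1 library in both comparisons. Slc27a3, another member of the transporter family, rose from 1.25 ± 0.0986 to 2.31 ± 0.529 CPM under CR (log2 fold change 0.85, SE 0.22, adjusted p = 0.021). It was not called in CREX against EX (0.58, SE 0.24, adjusted p = 0.16).

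The other genes of uptake and activation did not rise. Cd36 stood at 956, 989 and 1076 CPM in control and 816, 873, 926 and 929 CPM in CR mice, with all CR libraries below all control libraries. Its log2 fold change of -0.22 (SE 0.07, adjusted p = 0.041) was under the fold minimum, among the 20.9% of tested genes that passed the adjusted p alone. In CREX against EX Cd36 was at 0.02 (SE 0.07, adjusted p = 0.90). Acsl1 was 1746, 1759.6 and 1974 CPM in control and 1099, 1305, 1444 and 1799 CPM in CR mice, where CR 3 alone reached the control range. Its log2 fold change was -0.41 (SE 0.13, adjusted p = 0.052), and -0.64 (adjusted p = 0.0030), a called fall, without the 3 libraries of this comparison with over 500 CPM of muscle fibre markers (CR 3 at 1338, CR 4 at 681 and control 1 at 613 CPM). That fit held only CR 1, CR 2, control 2 and control 3, and CR 3 and CR 4 had the highest Acsl1 of the CR libraries. Between CREX and EX, Acsl1 had a log2 fold change of -0.14 (SE 0.14, adjusted p = 0.59). Scarb1, the scavenger receptor related to Cd36, fell by 0.71 on the log2 scale under CR (SE 0.08, adjusted p = 0.00048).

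Acot1 and Acot2, the thioesterases whose sequences are compared above, rose together. Acot1 was 4.43, 10.5 and 11.6 CPM in control and 21.6, 26.0, 36.5 and 50.7 CPM in CR mice, with no overlap (log2 fold change 1.88, SE 0.45, adjusted p = 0.039). Acot2 was 47.3, 48.3 and 50.4 CPM in control and 67.2, 70.4, 85.6 and 97.5 CPM in CR mice, again with no overlap (log2 fold change 0.68, SE 0.11, adjusted p = 0.0018). The relative difference was thus larger for the gene with the lower level. In trained mice Acot1 was 6.32, 7.57, 9.08 and 12.9998 CPM in EX and 15.4, 44.3, 44.6 and 45.2 CPM in CREX libraries (log2 fold change 2.02, SE 0.40, adjusted p = 0.030). CREX 3 was the low library of its group at 15.4 CPM, and it still lay above every EX library. Acot2 was 39.8, 44.0, 44.6 and 65.8 CPM in EX and 65.6, 82.4, 87.3 and 91.1 CPM in CREX libraries, where EX 2 and CREX 3 overlapped (log2 fold change 0.72, SE 0.16, adjusted p = 0.032). As a share of the counts of both genes, Acot1 made up 15.1% ± 5.86 in control, 28.9% ± 4.46 in CR, 15.5% ± 1.62 in EX and 30.2% ± 7.54 in CREX BAT (SD, n = 3, 4, 4 and 4).

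The calls of the thioesterases rested on the number of libraries. Acot1 in CR against control was not called without CR 2 (adjusted p = 0.0685), CR 3 (0.0535), CR 4 (0.0890), control 1 (0.0571), control 2 (0.0846) or control 3 (0.0936). In CREX against EX, Acot1 and Acot2 were both lost without any 1 of CREX 1, CREX 2, CREX 4, EX 1, EX 3 or EX 4, with adjusted p from 0.0658 to 0.0832 for Acot1 and from 0.0572 to 0.0871 for Acot2, while the log2 fold changes stayed at 1.89 or above and at 0.64 or above. Acot2 in CR against control held without any 1 library, but without the 3 libraries over 500 CPM of muscle fibre markers its log2 fold change was 0.49 (adjusted p = 0.0057), under the fold minimum. That fit held only CR 1, CR 2, control 2 and control 3. Of the other thioesterases of the family, 3 of 10 tested were called higher under CR and 0 lower, beside 3.87% and 6.86% of all tested genes. Acot3, a peroxisomal thioesterase whose coding sequence is 84.0% identical to that of Acot1, stood at 0.240 to 0.938 CPM in control and 1.75 to 5.78 CPM in CR mice (log2 fold change 2.32, SE 0.55, adjusted p = 0.025). Acot5 reached 0.258 to 0.717 CPM in CR mice, and was at 0.0751 to 0.146 CPM in control mice, close to the level of 3 counts. Of the 1108 windows of 150 coding bases of Acot1, 54 also occur unchanged in Acot3 (longest identical run 203 bases) and 10 in Acot5 (159 bases), so the levels of Acot3 and Acot5 may hold reads of Acot1 and are uncertain. Acot12 rose from 0.754 ± 0.235 to 2.24 ± 0.357 CPM, and Acot3 and Acot12 were also called higher in CREX against EX (log2 fold changes 2.42 and 1.57).

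**Figure D2:**
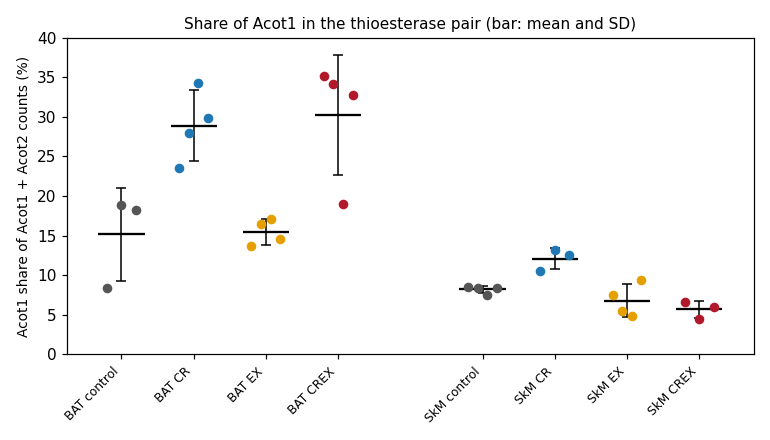
Share of Acot1 in the summed counts of Acot1 and Acot2, in percent, with 1 point per library and black bars for the group mean and SD. The CR and CREX libraries of BAT lie at 19.0% to 35.1% and the control and EX libraries of BAT at 8.39% to 18.8%, while every SkM library lies at 13.1% or less.

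Ehhadh, of peroxisomal β-oxidation, varied more within than between the BAT groups, at 122, 175 and 211 CPM in control and 111, 168, 214 and 272 CPM in CR mice (log2 fold change 0.14, SE 0.34, adjusted p = 0.81). Between CREX and EX its log2 fold change was 0.11 (SE 0.34, adjusted p = 0.88), and CREX 3 at 109 and CREX 4 at 325 CPM were the ends of the range. Angptl4, the lipase inhibitor, was 192 to 235 CPM in control and 176 to 347 CPM in CR mice (log2 fold change 0.23, SE 0.25, adjusted p = 0.56), and 0.22 (SE 0.23, adjusted p = 0.60) in CREX against EX. For both genes the groups overlapped.

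Of the mitochondrial carriers, Ucp2 lay at 22.6, 25.05 and 25.1 CPM in control and 26.5, 28.6, 30.1 and 34.7 CPM in CR mice, with no overlap and a log2 fold change of 0.28 (SE 0.10, adjusted p = 0.074). In trained mice it lay at 21.8, 24.0, 24.3 and 24.7 CPM in EX and 29.6, 31.1, 34.5 and 37.4 CPM in CREX libraries. That log2 fold change, 0.45 (SE 0.09, adjusted p = 0.019), passed the adjusted p, as 8.01% of tested genes did, and not the fold minimum. Ucp3 was 93.4, 95.9 and 119.9 CPM in control and 27.1, 31.9, 51.7 and 101 CPM in CR mice (log2 fold change -1.01, SE 0.48, adjusted p = 0.20). CR 3, at 101 CPM, was the library of this comparison with the most muscle fibre markers (1338 CPM). Without CR 3 the log2 fold change of Ucp3 was -1.51 (adjusted p = 0.013), and without all 3 libraries over 500 CPM of these markers it was -1.88 (adjusted p = 2.0e-05). The latter fit, chosen after seeing the data, held only CR 1, CR 2, control 2 and control 3. It left out CR 3 and CR 4, the CR libraries with the highest Ucp3. Muscle RNA at the share of its markers, with each gene at its level in control SkM, would account for 1.85 of the 101 CPM of Ucp3 in CR 3 (1.84%), for at most 20.9% of the Ucp3 level of a BAT library (CREX 3) and for at most 3.38% of the level of any of the other 8 genes. Ucp3 averaged 174 CPM in control SkM, but 314 CPM in CR and 363 CPM in CREX SkM. At those levels the shares of Ucp3 in CR 3 and CREX 3 would be larger. Between CREX and EX, Ucp3 had a log2 fold change of -0.45 (SE 0.33, adjusted p = 0.44). Ucp1, the uncoupling protein of brown fat, fell by 1.02 on the log2 scale under CR (SE 0.12, adjusted p = 0.00072) and by 0.99 in CREX against EX (SE 0.19, adjusted p = 0.019). The sum of 10 brown adipocyte markers, which include Ucp1, was 4540 to 5552 CPM in CR against 6451 to 7456 CPM in control BAT. It holds the fall of Ucp1 and is not a separate result. The part of cell composition in these changes was not tested.

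**Figure D3:**
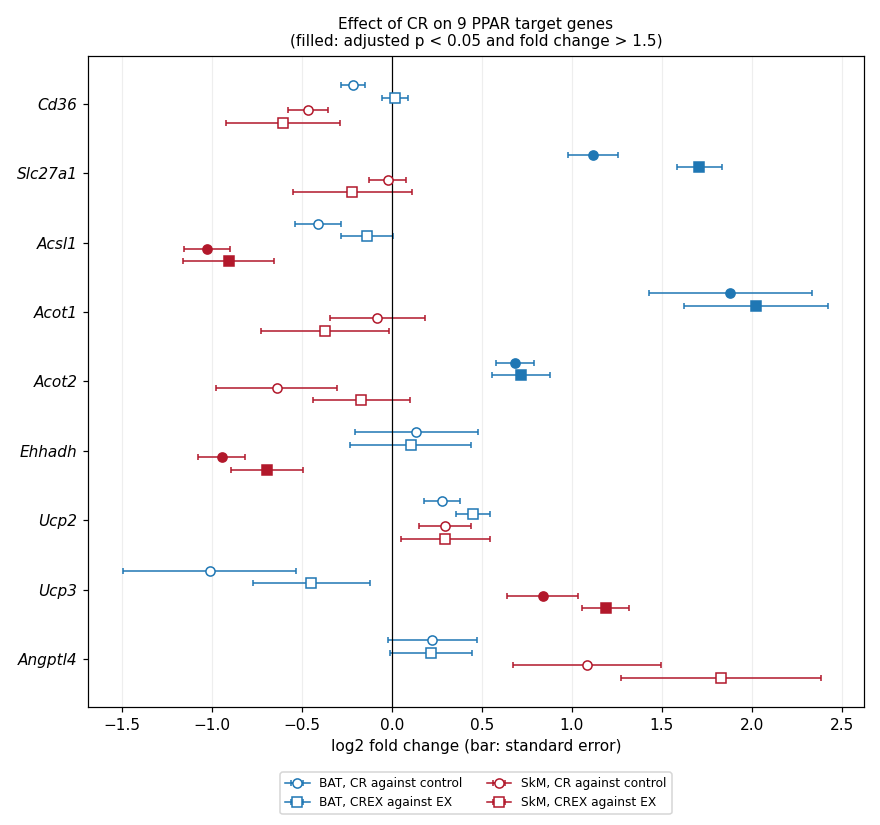
Log2 fold changes of the 9 genes for CR against control (circles) and CREX against EX (squares) in BAT (blue) and SkM (red), with bars of 1 SE and filled symbols for called changes. In BAT the filled symbols are Slc27a1, Acot1 and Acot2 on the higher side, and in SkM they are Acsl1 and Ehhadh on the lower and Ucp3 on the higher side.

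EX alone left no called change among the 9 genes in BAT. Against control, 0 of 9 were called by edgeR (0 of 9 at an unadjusted p under 0.05, and 0 by DESeq2), when 0% of 13407 tested genes were called. The log2 fold changes ran from -0.29 (Ucp3, SE 0.23) to 0.16 (Ehhadh, SE 0.26). In CREX against CR, 0 of 9 were called by edgeR and 0 by DESeq2, when 0.00763% of 13112 tested genes were called, and 1 of 9 had an unadjusted p under 0.05. That gene was Slc27a1, with 348 to 524 CPM in CR and 456 to 621 CPM in CREX libraries (log2 fold change 0.42, SE 0.13, adjusted p = 0.54). In the test of the interaction, which asks whether the CR effect differed between trained and sedentary mice, 0 of 9 genes and 0% of 13922 tested genes passed in BAT, and 2 of 9 had an unadjusted p under 0.05. These were Slc27a1 (log2 difference 0.59, SE 0.19, adjusted p = 0.82) and Cd36 (0.24, SE 0.10, adjusted p = 0.85).

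In SkM, CR went with lower Acsl1 and Ehhadh and with higher Ucp3. Against control, 3 of 9 genes were called, 2 lower and 1 higher, when 9.6% of 13173 tested genes were called (4.27% higher, 5.32% lower). In CREX against EX the same 3 genes were called in the same directions, when 8.87% of 13112 tested genes were called (3.7% higher, 5.17% lower). The median log2 fold change of the 9 genes was -0.081 and -0.22, beside medians of 0.0050 and 0.0026 over all tested genes. The groups did not overlap for 4 of 9 genes in each comparison, against 27.7% and 28.5% of tested genes.

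Acsl1 stood at 391, 416, 429 and 438 CPM in control and 175, 209 and 236 CPM in CR mice, with no overlap (log2 fold change -1.03, SE 0.13, adjusted p = 0.0011). The call held without any 1 library. In trained mice Acsl1 was 285, 295, 355 and 368 CPM in EX and 125, 136 and 261 CPM in CREX libraries, again with no overlap (log2 fold change -0.91, SE 0.25, adjusted p = 0.048). That call was lost without CREX 2 (adjusted p = 0.153), CREX 3 (0.125), EX 1 (0.112), EX 2 (0.118), EX 3 (0.0853) or EX 4 (0.0827). CREX 2 and CREX 3, the lower CREX libraries, also had the fewest slow fibre markers. With the slow fibre score as a covariate the log2 fold change was -0.62 (adjusted p = 0.30). Without the 3 libraries under 500 CPM of these markers (CREX 2, CREX 3 and EX 1) it was -0.28. That fit left CREX 1 as the only CREX library, so it holds no spread within CREX.

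Cd36 was 284, 286, 291 and 299 CPM in control and 191, 215 and 229.6 CPM in CR mice, with no overlap. Its log2 fold change of -0.46 (SE 0.11, adjusted p = 0.021) was under the fold minimum, among the 14% of tested genes that passed the adjusted p alone (13.6% in CREX against EX). In trained mice, Cd36 lay at 93.3, 102 and 229.9 CPM against 175, 216, 233 and 237 CPM (log2 fold change -0.61, SE 0.31, adjusted p = 0.22), and without CREX 1, the high library, it was -1.14 (adjusted p = 0.00013). Without the 3 libraries under 500 CPM of slow fibre markers, which left CREX 1 as the only CREX library, its sign turned, to 0.14. Slc27a1 was 129, 130.1, 133 and 146 CPM in control and 129, 131 and 142 CPM in CR mice, a log2 fold change of -0.02 (SE 0.10, adjusted p = 0.91). Its CREX libraries lay at 71.1, 78.5 and 180.4 CPM, on both sides of the EX libraries at 99.9 to 144 CPM (log2 fold change -0.22, SE 0.33, adjusted p = 0.68). Without CREX 1 that value was -0.78 (adjusted p = 0.0025). Its sign turned without CREX 2 (0.018, adjusted p = 0.98) and with the slow fibre score as a covariate (0.18, adjusted p = 0.82). It also turned without the 3 libraries low in slow fibre markers (0.53), again with CREX 1 as the only CREX library. The 10 endothelial markers, a cell type rich in Cd36, summed to 259 to 288 CPM in CR against 370 to 435 CPM in control SkM, and to 174 to 318 CPM in CREX against 339 to 437 CPM in EX libraries. Of these markers 3 of 10 were called lower in each comparison, beside 5.32% and 5.17% of all tested genes. Their part in the level of Cd36 was not tested.

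Ehhadh was 9.70, 11.7, 11.8 and 12.01 CPM in control and 5.39, 5.73 and 6.64 CPM in CR mice, with no overlap (log2 fold change -0.95, SE 0.13, adjusted p = 0.0016), and the call held without any 1 library. In trained mice it was 6.50, 6.92, 7.15 and 7.70 CPM in EX and 2.98, 4.59 and 5.60 CPM in CREX libraries, also apart (log2 fold change -0.69, SE 0.20, adjusted p = 0.048). This call was lost without any 1 of CREX 2, CREX 3 and the 4 EX libraries (adjusted p from 0.0536 to 0.123) and with the slow fibre score as a covariate (log2 fold change -0.57, adjusted p = 0.32). Without the 3 libraries under 500 CPM of slow fibre markers, which left CREX 1 as the only CREX library, the log2 fold change was -0.62.

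Ucp3 stood at 146, 165, 189.7 and 196 CPM in control and 233, 280.2 and 429 CPM in CR mice, with no overlap (log2 fold change 0.84, SE 0.20, adjusted p = 0.019). The call was lost without CR 1, the highest library (log2 fold change 0.55, adjusted p = 0.021, under the fold minimum), without control 2 (0.76, adjusted p = 0.067) and without control 3 (0.81, adjusted p = 0.066). In trained mice Ucp3 was 135, 156, 164 and 181 CPM in EX and 331, 349 and 408 CPM in CREX libraries. This 2.28-fold difference (log2 fold change 1.19, SE 0.13, adjusted p = 0.0019) ranked 26 by p among 13112 genes and held without any 1 library and with the slow fibre score as a covariate. Ucp2, at 11.95 to 17.2 CPM in control and 17.0 to 21.8 CPM in CR mice, had a log2 fold change of 0.29 (SE 0.15, adjusted p = 0.21), and one of 0.30 (SE 0.25, adjusted p = 0.44) in CREX against EX. The groups overlapped for Ucp2 in both comparisons.

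The remaining genes were not called for CR in SkM. Acot1 was 3.67 to 5.23 CPM in control and 2.95, 3.25 and 6.51 CPM in CR mice (log2 fold change -0.08, SE 0.26, adjusted p = 0.87). Acot2 was 40.5 to 64.5 CPM in control and 20.6, 21.5 and 55.4 CPM in CR mice (log2 fold change -0.64, SE 0.34, adjusted p = 0.24). For both, CR 1 was the high library and the other 2 lay below every control library, and without CR 1 the log2 fold change of Acot2 was -1.26 (adjusted p = 0.00093). Angptl4 was 4.49, 4.98, 6.40 and 12.01 CPM in control and 8.76, 11.5 and 24.7 CPM in CR mice (log2 fold change 1.08, SE 0.41, adjusted p = 0.11). Without control 3, the library at 12.01 CPM, it was 1.48 (adjusted p = 0.038). Over all fits with 1 library left out, this log2 fold change of Angptl4 ran from 0.53 to 1.48, with adjusted p up to 0.42. In trained mice Angptl4 lay at 1.08, 1.90, 3.96 and 5.63 CPM in EX and 5.87, 12.1 and 15.8 CPM in CREX libraries, with no overlap and a log2 fold change of 1.83 (SE 0.56, adjusted p = 0.071 in edgeR and 0.034 in DESeq2).

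EX went with lower thioesterases and lower Ehhadh in SkM. Against control, 3 of 9 genes were called, all 3 lower, when 0.0775% of 12907 tested genes (10 genes) were called, 0.0542% (7 genes) lower and 0.0232% (3 genes) higher, and 0.093% passed the adjusted p alone. All 9 log2 fold changes were below 0, with a median of -0.43 beside 0.00017 over all tested genes, and the groups did not overlap for 5 of 9 genes (4.15% of tested genes). Acot1 was 3.67, 4.28, 4.45 and 5.23 CPM in control and 1.32, 1.37, 1.91 and 2.06 CPM in EX mice (log2 fold change -1.40, SE 0.19, adjusted p = 0.014). Acot2 was 40.5, 46.0, 48.9 and 64.5 CPM in control and 20.2, 23.3, 23.5 and 26.6 CPM in EX mice (log2 fold change -1.10, SE 0.14, adjusted p = 0.0099). Ehhadh was 9.70 to 12.01 CPM in control and 6.50 to 7.70 CPM in EX mice (log2 fold change -0.68, SE 0.11, adjusted p = 0.028). None of these groups overlapped, and the genes ranked 4, 3 and 10 by p. Cd36 (log2 fold change -0.43, SE 0.10, adjusted p = 0.16) and Acsl1 (-0.36, SE 0.10, adjusted p = 0.28) were also apart from control and were not called. As Acot1 and Acot2 share reads, their calls are not independent of each other.

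The EX calls depended on the fit and on single libraries. With 1 fit over all 4 groups of SkM, 0 of 9 genes were called (adjusted p = 0.36 for Acot1, 0.81 for Acot2 and 0.36 for Ehhadh), although the log2 fold changes stayed at -1.41, -1.10 and -0.68. With the slow fibre score as a covariate 0 of 9 were called, with log2 fold changes of -1.58, -1.06 and -0.71 and adjusted p of 0.063, 0.063 and 0.079. Acot2 held without any 1 library. Acot1 was lost without control 3 (adjusted p = 0.077) or EX 3 (0.057), and Ehhadh without control 3 (0.125) or any 1 EX library (0.0612 to 0.116). In CREX against CR, 0 of 9 genes and 0% of 13068 tested genes were called by edgeR, and DESeq2 called 0 of 9. Acot1 was the 1 gene of 9 with an unadjusted p under 0.05 there, at 2.95, 3.25 and 6.51 CPM in CR and 0.776, 1.02 and 2.07 CPM in CREX libraries (log2 fold change -1.69, SE 0.44, adjusted p = 0.999), with no overlap (7.77% of tested genes). In the interaction test in SkM, 0 of 9 genes and 0% of 13610 tested genes passed, with 0 of 9 at an unadjusted p under 0.05.

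**Figure D4:**
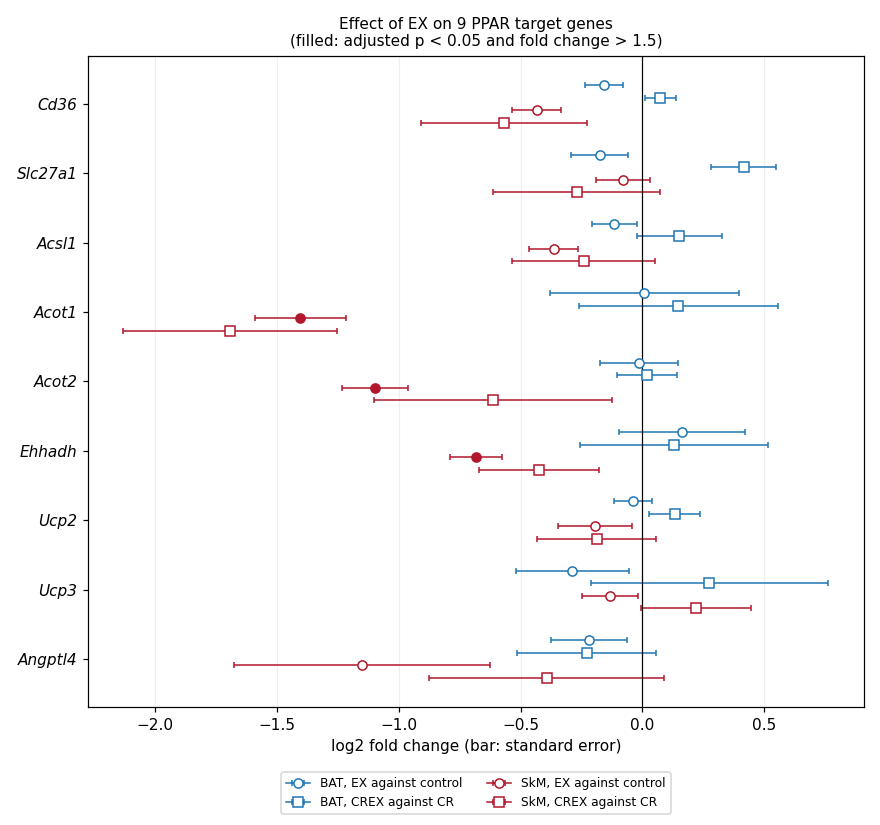
Log2 fold changes of the 9 genes for EX against control (circles) and CREX against CR (squares) in BAT (blue) and SkM (red), with bars of 1 SE and filled symbols for called changes. The filled symbols are Acot1, Acot2 and Ehhadh in SkM of EX against control, at -1.40, -1.10 and -0.68, and no BAT symbol is filled.

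Of the 9 genes, 6 followed the slow fibre markers across the 14 SkM libraries. Pearson's r of log2 CPM with the slow fibre score was 0.80 for Cd36, 0.72 for Acot1, 0.71 for Slc27a1, 0.60 for Acot2 and 0.59 for Acsl1 and Ehhadh, while it was 0.04 for Ucp2, -0.11 for Angptl4 and -0.50 for Ucp3. These are descriptions over libraries that differ in intervention as well, and CREX 2 and CREX 3 stood apart at the low end. The sums of these markers overlapped between the SkM control and CR libraries, at 1186 to 2315 and 1901 to 2217 CPM.

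**Figure D5:**
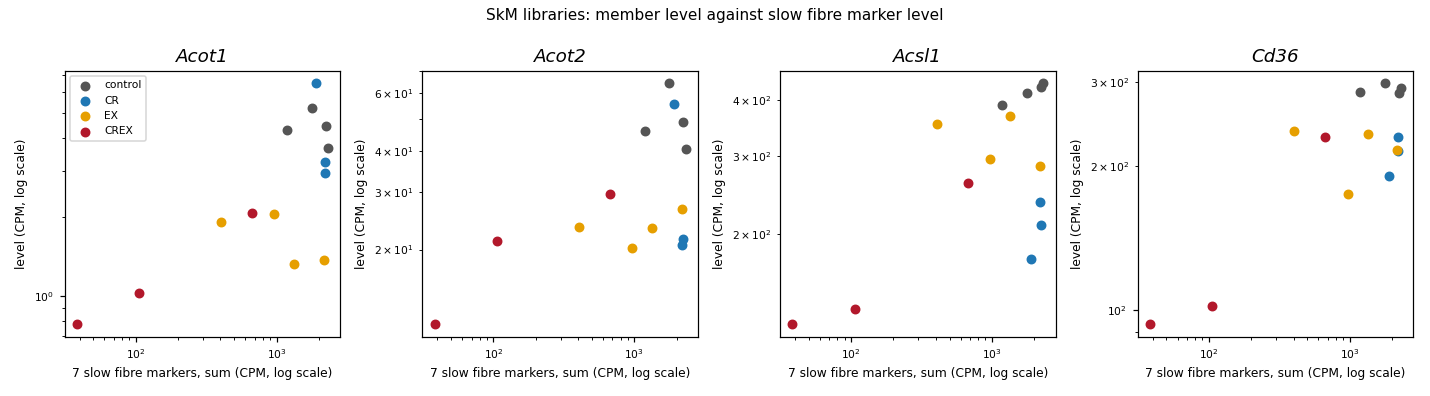
Levels of Acot1, Acot2, Acsl1 and Cd36 in the 14 SkM libraries (CPM, log axis) against the summed level of 7 slow fibre markers (CPM, log axis), with 1 point per library coloured by group. CREX 2 and CREX 3 lie at the lower left with 106 and 38.3 CPM of the markers, and the CR libraries lie to the right, at 1901 to 2217 CPM, with Acsl1 at 175 to 236 CPM.

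The effect of CR differed between the tissues for Slc27a1. Its log2 fold change for CR was lower in SkM than in BAT by 1.15 in sedentary mice (SkM minus BAT -1.15, SE 0.19, adjusted p = 0.0019), where 1 of 9 genes and 7.58% of 14369 tested genes passed an adjusted p under 0.05 (3.93% lower in SkM). In trained mice 3 of 9 genes and 5.58% of 14410 tested genes passed (2.55% higher and 3.03% lower in SkM). The differences were -1.94 for Slc27a1 (SE 0.36, adjusted p = 0.011), -2.41 for Acot1 (SE 0.63, adjusted p = 0.044) and 1.63 for Ucp3 (SE 0.38, adjusted p = 0.027). In sedentary mice Acot1 (-1.98, SE 0.56, adjusted p = 0.055) and Ucp3 (1.83, SE 0.54, adjusted p = 0.064) did not pass. Slc27a1 passed without any 1 library in both settings. The trained SkM libraries include CREX 2 and CREX 3, which had the fewest slow fibre markers, and their part in the trained differences was not tested. The trained differences were lost for Acot1 without any 1 of the 4 SkM EX libraries or of 8 other libraries (adjusted p from 0.0567 to 0.126), and for Ucp3 without SkM CREX 2 (0.062), CREX 3 (0.069), EX 2 (0.054), EX 3 (0.056) or EX 4 (0.05001).

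The receptors themselves were not called for CR. Of Ppara, Ppard, Pparg, Rxra, Rxrb and Rxrg, edgeR called 0 of 6 in each CR comparison, when 10.7% and 4.48% of all tested genes were called in BAT and 9.6% and 8.87% in SkM. In sedentary and trained BAT 2 and 3 of 6 had an unadjusted p under 0.05, beside 4767 of 13323 and 3392 of 13251 tested genes. In SkM 0 and 1 of 6 did, beside 3866 of 13173 and 4235 of 13112 tested genes. Ppara in BAT stood at 274 to 303 CPM in control and 86.5 to 227 CPM in CR mice, with no overlap (log2 fold change -1.02, SE 0.30, adjusted p = 0.063), and at -0.54 (SE 0.26, adjusted p = 0.24) in CREX against EX. Ppard in BAT passed the adjusted p but not the fold minimum (log2 fold change 0.29, SE 0.08, adjusted p = 0.033), and Pparg in BAT was at -0.03 (SE 0.11, adjusted p = 0.86). Rxra, Rxrb and Rxrg lay between -0.48 and 0.08 in CR against control of BAT. In SkM the 6 receptors lay between -0.21 and 0.25 in CR against control and between -0.37 and 0.33 in CREX against EX.

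Among 10 coregulators of these receptors, Nrip1, the corepressor RIP140, stood in SkM at 11.4 to 14.1 CPM in control, 34.5 to 46.6 in CR, 20.5 to 27.5 in EX and 48.4 to 81.7 CPM in CREX mice. It was called higher in CR against control (log2 fold change 1.70, SE 0.13, adjusted p = 7.2e-05), in CREX against EX (1.45, SE 0.18, adjusted p = 0.0039) and in EX against control (0.94, SE 0.12, adjusted p = 0.0099). Ppargc1b, the coactivator PGC-1β, was called lower in both CR comparisons of SkM, from 14.5 to 22.9 CPM in control to 6.56 to 9.07 CPM in CR mice (log2 fold change -1.26, SE 0.18, adjusted p = 0.0018) and by -1.94 in CREX against EX (SE 0.19, adjusted p = 0.0015). No other coregulator was called in these SkM comparisons.

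Of 51 further PPAR targets, 3 of 47 tested were called higher and 3 lower in BAT in CR against control, when 3.87% and 6.86% of all tested genes were called in these directions, with a median log2 fold change of 0.035. In CREX against EX 1 of 46 was called higher and 1 lower, beside 1.86% and 2.63% of all tested genes, with a median of 0.048. These shares were near those of all genes. Cyp4a10, a fatty acid ω-hydroxylase, rose by 2.85 (SE 0.57) and the malic enzyme Me1 by 1.49 (SE 0.14) on the log2 scale under CR. Vnn1 fell by 2.35, the fatty acid binding protein Fabp3 by 1.28 and the lipid droplet protein Plin1 by 0.67, and Fabp3 also fell by 1.11 in CREX against EX. Angptl1 and Angptl2, relatives of Angptl4, were called lower under CR (log2 fold changes -1.03 and -0.66), and Angptl1 also in CREX against EX (-1.38). In the list around lipoprotein lipase, Apoc3 was the 1 gene of 6 tested that was called in CR against control, at 1.53 (SE 0.43, adjusted p = 0.032). Apoc3 was not called in CREX against EX (0.18, SE 0.26, adjusted p = 0.71) or in EX against control (1.14, SE 0.37, adjusted p = 0.56).

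In SkM, 8 of 44 further targets tested were called lower and 6 higher in CR against control, beside 5.32% and 4.27% of all tested genes, with a median log2 fold change of -0.31. In CREX against EX 8 of 43 were called lower and 1 higher, beside 5.17% and 3.7% of all tested genes, with a median of -0.53. The slow fibre markers of those libraries summed to 38.3 to 674 CPM in CREX and 405 to 2177 CPM in EX mice, with 0 of 7 called and a median log2 fold change of -2.47, and their part in the lower targets was not tested. In EX against control 0 of 42 were called by edgeR (9 of 42 at an unadjusted p under 0.05, beside 884 of all 12907 tested genes), with a median of -0.15. Fabp3 fell by 1.35 and by 1.74 on the log2 scale in the CR comparisons of sedentary and trained mice, Hadhb by 0.68 and 0.96, and Cpt2 by 0.67 and 0.80. Hadhb and Hadha form the trifunctional protein of mitochondrial β-oxidation, and Cpt2 is the carnitine acyltransferase of the inner membrane. Plin5, the lipid droplet protein of oxidative tissue, fell by 1.15, Pltp by 0.88 and Lpl, the lipase that Angptl4 inhibits, by 0.78 in CR against control. Between CREX and EX, Hadh fell by 0.83 and Acadm by 0.82. Plin4 rose in both, from 236 to 313 CPM in control to 602 to 632 CPM in CR mice (log2 fold change 1.19, SE 0.12, adjusted p = 0.00039) and by 1.28 in CREX against EX (SE 0.14, adjusted p = 0.0019).

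Other called rises in SkM under CR stood beside hepatocyte transcripts. Cyp4a14 was at 0 in all 4 control libraries and at 0.734 to 8.30 CPM in CR mice, and Cyp4a10 at a mean of 0.0250 CPM in control and at 0.832 to 6.63 CPM in CR mice. Pck1 was 0.200 to 0.997 CPM in control and 7.34 to 18.8 CPM in CR mice, and Scd1 4.05 to 13.04 CPM in control and 38.4 to 403 CPM in CR mice. Of the 10 hepatocyte markers 8 were tested and all 8 were called higher, beside 4.27% of all tested genes. The 10 markers summed to 49.3, 269 and 273 CPM in the 3 CR libraries and to at most 7.95 CPM in control SkM. Apoa5 and Apoc3, apolipoproteins made in liver, were called higher as well, at 0.783 to 5.69 CPM and 1.47 to 8.26 CPM in CR mice against means of 0.0499 and 0.158 CPM in control. Adipocyte markers, whose cells also express Scd1 and Pck1, summed to 172 to 341 CPM in CR and 193 to 278 CPM in control SkM. The part of liver or adipocyte RNA in these rises was not tested. Called relatives of the 9 genes in SkM were Angptl7 and Angptl2 (log2 fold changes 1.84 and 0.76 in CR against control) and, in CREX against EX, Acsl3 (1.15), Slc25a30 (0.88), Acsl6 (0.62), Acot7 (-0.69) and Acot13 (-0.67).

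Across the 15 BAT libraries, Slc27a1, Acot1 and Acot2 varied together, with Pearson's r of log2 CPM of 0.92 for Slc27a1 with each thioesterase and 0.94 between the thioesterases, which share reads. Ucp2 followed at 0.82 with Slc27a1, and Acsl1 and Ucp3 formed another pair at 0.88. Of all 13922 genes kept in BAT, the 2 most alike to Slc27a1 were Gm15401 (r = 0.974) and Acot5 (0.965), those most alike to Acot1 were Arxes2 (0.949) and Acot3 (0.946), which can share reads with Acot1, and those most alike to Acot2 were Epb41 (0.944) and Acot1 (0.943). In the 14 SkM libraries, out of 13610 genes, Acsl1 was most like Etfdh (0.979) and Hadha (0.978), an electron carrier and a β-oxidation enzyme of mitochondria. Ehhadh was most like Vstm4 (0.943) and Lrrc2 (0.930), and Ucp3 was most like Fastkd5 (0.963) and Ppp1r3c (0.961). These values describe likeness over libraries of all groups, and part of each is the shared difference between groups.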

How the data were processed

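Total mRNA of BAT and SkM was sequenced, and the authors aligned the reads with STAR 2.7.10a and deposited RSEM expected counts per gene symbol (RSEM 1.2.28 per the labels), with the annotation used for counting not given in the sources used here. Expected counts were rounded to whole numbers. Symbols turned into dates by a spreadsheet (27) and duplicated symbols (2) were kept as listed. Each comparison was fitted on its own libraries with edgeR 4.0.16 in R 4.3.3 (TMM factors, filterByExpr, robust quasi-likelihood test, Benjamini-Hochberg adjustment over all genes tested), and the SE of each log2 fold change was derived from it and the F statistic (log2 fold change over root F). Interactions and tissue differences were called on an adjusted p under 0.05 alone. Fold changes came from the model, and CPM and marker sums from TMM factors over all 29 libraries. The marker score was the mean of log2(CPM + 1), with CPM from library totals. DESeq2 1.42.0 and other settings served as alternatives. The named genes were the 9 genes in every comparison and, in each CR comparison, every receptor, up to 5 higher and 5 lower called genes of the lists by fold change, and called paralogs. For each of the 9 called in a CR comparison, the 2 genes most alike by Pearson's r of log2 CPM were named, and markers where their list was described. Some called genes of the lists are not reported here. The 9 genes and the lists were chosen with earlier results of these data known. Nothing in the labels pairs same-numbered libraries, so p-values measure the spread between libraries. The script for the tests was tested on simulated data.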

Additional observations from a re-analysis of the deposited data

Results flagged for a closer look

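Among the 45 sets of 4 libraries examined for the 9 genes, chance alone sets apart about 1 in 20. Acot1 in BAT of CREX mice had 1 library far below the other 3, CREX 3 at 15.4 CPM against 44.3 to 45.2 CPM. CREX 3 was also the lowest BAT library of its group for Slc27a1 (456 CPM), Acsl1 (1135 CPM), Acot2 (65.6 CPM), Ehhadh (109 CPM), Ucp2 (29.6 CPM) and Ucp3 (36.9 CPM). It was not the lowest for Cd36 (909 CPM) or Angptl4, so the low value is not particular to Acot1. This library also had the most muscle fibre markers of all BAT libraries, 5583 CPM. Muscle RNA at that share, with Acot1 at the level of control SkM, would amount to 0.196 of its 15.4 CPM (1.27%). This is an added amount, so it cannot bear on why the level was low, which was not tested. Ehhadh in control SkM had 1 low library, control 2 at 9.70 CPM against 11.7 to 12.01 CPM.

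By a test of the difference itself, the response to CR differed between SkM and BAT for Slc27a1 in both settings. For Acot1 and Ucp3 it differed in trained mice only. The log2 difference, SkM minus BAT, was -1.15 in sedentary and -1.94 in trained mice for Slc27a1, -2.41 in trained mice for Acot1 and 1.63 in trained mice for Ucp3. In sedentary mice Acot1 (adjusted p = 0.055) and Ucp3 (0.064) did not pass. The trained call was lost in 14 of 20 alternative fits for Acot1 and in 5 of 20 for Ucp3.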

How the results depend on the processing

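Library composition was examined after seeing the data, by leaving out libraries with many muscle fibre or few slow fibre markers and by the slow fibre score as a covariate. Leaving libraries out kept CREX 1 as the only CREX library in SkM CREX against EX. In BAT CR against control it kept CR 1, CR 2, control 2 and control 3. Of 491 log2 fold changes of the 9 genes under other settings, 442 kept direction and side of the threshold, 24 lost a call, 14 gained one and 11 changed sign. Of 614 with 1 library left out, the numbers were 525, 62, 13 and 14. The cause of each change was not tested.

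The count of called genes in SkM CREX against EX was 1 with the slow fibre covariate and 1 to 5 with a library left out. In SkM EX against control it was 1 with a replicate block, 0 with 1 fit over all groups, 0 with the slow fibre covariate, and 1 to 3 with a library left out. The sedentary tissue difference gave 4 genes with at least 10 counts in every library, 6 in DESeq2 and 1 to 3 with a library left out, and the trained difference gave 1 to 6. BAT CREX against EX gave 1 to 3, and SkM CREX against CR gave 0 to 1, the 1 without CREX 1. With a replicate block, counts were 2 in BAT CREX against EX, SkM CREX against EX and the trained tissue difference, and as reported elsewhere. The mean correlation of same-numbered deviations ran from -0.302 to 0.146, and that of single pairs from -0.471 to 0.497. With 3 or 4 pairs per comparison, these values cannot settle whether the numbers pair libraries.

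Signs changed as follows. Without the 3 BAT libraries over 500 CPM of muscle fibre markers, Ehhadh in CR against control was -0.25. Without those over 3000 CPM (CREX 3, EX 2 and EX 3), Acsl1 was 0.086 and Angptl4 -0.073 in CREX against EX. With the slow fibre covariate, Acot1 was 0.051 in SkM CR against control, and Slc27a1 was 0.18 and Acot2 0.25 in CREX against EX. Without the SkM libraries under 500 CPM of slow fibre markers, Cd36 was 0.14, Slc27a1 0.53, Acot1 0.38 and Acot2 0.34 in CREX against EX. These values rest on CREX 1 as the only CREX library left. On library totals, Acot2 was 0.27 in BAT against SkM control. Slc27a1 was then called higher in BAT (0.73) and Ucp3 not called (-0.46). With a library left out, the ranges that crossed 0 were Angptl4 -0.0046 to 0.37 and Ehhadh -0.063 to 0.32 in BAT CR against control, Cd36 -0.013 to 0.058 and Ehhadh -0.17 to 0.32 in BAT CREX against EX, Acot2 -0.15 to 0.077 in BAT against SkM control, Acot1 -0.52 to 0.12 and Slc27a1 -0.075 to 0.018 in SkM CR against control, Acot2 -0.51 to 0.12 and Slc27a1 -0.78 to 0.018 in SkM CREX against EX, and Slc27a1 -0.14 to 0.023 in SkM EX against control.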

Other observations

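Of 10 fibroblast markers, 5 were called lower and 0 higher in CR against control of BAT, when 6.86% of all tested genes were called lower, and 1 was called lower in CREX against EX (2.63%). In SkM 4 were called lower and 0 higher in each CR comparison (5.32% and 5.17%). The sum of these markers was 614 to 683 CPM in CR against 755 to 881 CPM in control BAT, with no overlap. In SkM the sums overlapped, at 616 to 864 CPM in CR against 792 to 1041 CPM in control and at 740.1 to 885 CPM in CREX against 669 to 1078 CPM in EX libraries. Of 10 macrophage markers 2 were called lower in CR against control of BAT, at a sum of 44.8 to 67.5 CPM against 75.6 to 81.1 CPM. Of 10 general adipocyte markers 2 were called lower there, while their sum had a higher median in CR, 10700 CPM (10090.4 to 11305 CPM), than in control, 10284 CPM (9520 to 10536 CPM), and the ranges overlapped.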
